A study of Mus musculus with 5 samples.

Results

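Mrc1, Marco, Msr1, Cd163, Mertk, Axl, Stab1, Trem2, Clec7a and Olr1 are genes of receptors with which macrophages take up particles, modified lipoproteins and dying cells. They were found by exact symbol, and all 10 were present among the 42454 features counted in single-cell RNA sequencing of mouse lung. Newborn C57BL/6J mice, under 12 h old, were kept in room air or in more than 95% O2 for 3 days and then in room air until postnatal day (pnd) 7 or 60, and unsorted lung cells gave the libraries Air pnd7, O2 pnd7, Air pnd60 and O2 pnd60. For the library O2/SC pnd7, cells from hyperoxia-exposed lungs of 3 mice were pooled at pnd7 and sorted on C12FDG, a substrate that becomes fluorescent when cleaved by β-galactosidase, an enzyme whose activity is used as a mark of senescent cells. The number of mice in each unsorted library is not given in the sources used here. Each condition had 1 library, so there is no spread between replicates, no p-value is given, and the 95% intervals cover counting error only.

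Scavenger receptors bind altered lipoproteins, microbes and debris and carry them into the cell. Efferocytosis, the clearance of dying cells, uses receptors that recognise phosphatidylserine on the cell surface, either directly or through a bridging protein. The product of Gas6 binds both Mertk and Axl, and protein S, the product of Pros1, binds Mertk. The lung holds alveolar macrophages, which live in the air spaces and take up surfactant and inhaled particles, and interstitial macrophages, which lie in the tissue and carry complement C1q.

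Promoter sequence is shown for 4 of these genes, namely Marco and Clec7a, with more RNA in alveolar-type macrophages, Stab1, with more in the C1q-type, and Mrc1, high in both, so that the stretch in front of each gene can be read beside its levels. Each is the 250 bases before the RefSeq start site of the assembly GRCm38.p6, the build named mm10 in the submitters' processing notes, written in the direction of the gene. Both strands were searched. Capitals mark GAGGAA, the core bound by the myeloid factor PU.1, which reads as TTCCTC on the other strand, and TGCTGA, the core of a site for MAF factors, which reads as TCAGCA on the other strand. The windows lie at chr1:120505025-120505274 on the minus strand for Marco, chr6:129472786-129473035 on the minus strand for Clec7a, chr2:14229164-14229413 on the plus strand for Mrc1 and chr14:31168642-31168891 on the minus strand for Stab1.
Marco: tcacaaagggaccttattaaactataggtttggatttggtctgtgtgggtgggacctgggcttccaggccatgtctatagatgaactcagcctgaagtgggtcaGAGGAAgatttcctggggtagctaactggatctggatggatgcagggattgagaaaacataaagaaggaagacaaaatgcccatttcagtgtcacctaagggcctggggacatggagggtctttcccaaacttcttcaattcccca
Clec7a: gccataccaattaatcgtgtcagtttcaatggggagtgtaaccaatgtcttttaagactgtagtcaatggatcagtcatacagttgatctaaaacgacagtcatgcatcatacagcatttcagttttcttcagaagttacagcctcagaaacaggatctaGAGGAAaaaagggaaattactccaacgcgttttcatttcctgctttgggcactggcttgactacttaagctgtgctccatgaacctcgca
Mrc1: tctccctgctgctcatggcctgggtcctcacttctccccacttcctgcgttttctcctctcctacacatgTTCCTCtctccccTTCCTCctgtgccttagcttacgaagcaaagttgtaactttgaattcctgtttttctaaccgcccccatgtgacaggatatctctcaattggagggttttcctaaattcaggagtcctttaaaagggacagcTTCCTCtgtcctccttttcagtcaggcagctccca
Stab1: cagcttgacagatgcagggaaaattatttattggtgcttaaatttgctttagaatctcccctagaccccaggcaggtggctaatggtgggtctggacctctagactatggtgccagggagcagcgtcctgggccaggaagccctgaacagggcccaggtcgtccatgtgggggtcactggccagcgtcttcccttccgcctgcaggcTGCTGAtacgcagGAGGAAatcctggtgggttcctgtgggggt
The Stab1 window overlaps the 5′ end of the annotated gene, which lies on the minus strand, by 10 bases. Clec7a has 2 promoters in the table, of which 1 is shown. Of the 9 members with a sequence in the table, 7 held the PU.1 core, which 23.3% of the 32851 windows of all genes held, and 1, Stab1, held the MAF core, which 16.1% held. Mrc1 had 3 matches to the PU.1 core. Cd163, with more RNA in the C1q-type, and Mertk, with more in the alveolar-type, held neither core. The 2 motifs do not overlap in any sequence shown, and a match is a description of the letters and not of binding.

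After the filter of the study's methods, 493 to 4757 cells per library remained, with 7880365 to 16649374 counts of unique molecular identifiers and a median of 2167.5 to 15529 counts per cell, the highest in O2/SC pnd7. Pairs of libraries shared 0 to 4 barcodes. Cells were clustered without the 10 receptor genes, and clusters were named from marker lists, so that "-like" and "-type" mean resemblance in RNA. Alveolar-type macrophages numbered 80 in Air pnd7, 56 in O2 pnd7, 413 in O2/SC pnd7, 182 in Air pnd60 and 191 in O2 pnd60, and C1q-type macrophages 22, 19, 49, 65 and 56 in the same order. All 10 alveolar markers were above 0 in the alveolar-type cells of every library, with a summed level of 3606 to 17284 CPM (counts of a group divided by its total and scaled to a common size), against 31.9 to 209 CPM in the C1q-type cells, while the C1q-type cells carried 8 of 9 C1q markers, with Pf4 at 0, at 10468 to 19947 CPM. With the 5 libraries clustered together without integration, most sorted alveolar-type cells lay apart from the unsorted ones. Of the sorted cells, 371 lay in a cluster led by Hmox1, Slc7a11, Mt1 and Gdf15. This cluster had 7 of 10 alveolar markers raised, and its leading genes held no alveolar marker. No sorted cell lay in the cluster led by Chil3, Krt79 and Ear1 that held most unsorted alveolar-type cells. The other 42 shared a cluster led by cell cycle genes with 13, 15, 11 and 8 cells of Air pnd7, O2 pnd7, Air pnd60 and O2 pnd60. After Seurat integration, 146 sorted cells lay in the cluster led by Chil3, Ear1 and Krt79, and sorted alveolar-type cells numbered 219. Unsorted alveolar-type cells then numbered 137 in Air pnd7, 80 in O2 pnd7, 172 in Air pnd60 and 187 in O2 pnd60. Among the 413 sorted alveolar-type cells, 64 were set aside in an alternative as holding markers of the other macrophage class. In Air pnd7 these were 3 of 80 and in O2 pnd7 3 of 56. Type II-like markers summed to 8795 CPM in the C1q-type cells of Air pnd7 and 8408 CPM in those of O2/SC pnd7, against 263, 333 and 461 CPM in O2 pnd7, Air pnd60 and O2 pnd60, and their part in the C1q-type results was not tested.

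Of the 10 genes, 9 had between 239 and 17783 counts in the 13205 cells kept. Trem2, which binds lipids and signals through Tyrobp, had 2 counts in 2 cells, while its adaptor Tyrobp had 34635 counts in 3396 cells. A further feature with the symbol Trem2_1 had 0 counts. Of 1740 features with such a copy, 910 (52.3%) had 0 counts under the plain symbol, against 40.5% of all 42454 features. Trem2, with 2 counts, is given no level below, and the reason for its low count was not tested.

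The receptor genes divided the macrophage classes in the same way in most libraries. Clec7a, Olr1, Mertk and Axl were higher in alveolar-type macrophages, Stab1, Cd163 and Msr1 were higher in C1q-type macrophages, and Mrc1 was high in both. The direction held in every library for Clec7a, Olr1, Mertk, Axl, Stab1 and Msr1. It held for Cd163 too, but from few counts in O2 pnd7 (14 in C1q-type and 0 in alveolar-type cells) and O2/SC pnd7 (6 and 4).

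Olr1 encodes the lectin-like receptor for oxidised LDL. In alveolar-type macrophages it stood at 411 CPM (from 374 to 451) in Air pnd7, 481 (436 to 529) in O2 pnd7, 318 (304 to 331) in O2/SC pnd7, 385 (353 to 418) in Air pnd60 and 420 (389 to 454) in O2 pnd60. The sorted library was below the other 4, whose intervals overlap their neighbours in the order. C1q-type macrophages had 0 counts of Olr1 in Air pnd7, O2 pnd7 and O2 pnd60, 1 count in Air pnd60, and 48 counts in O2/SC pnd7, of which 30 came from 1 cell. With a floor of 3 counts per group, Olr1 was at least 34.4-fold higher in the alveolar-type cells of Air pnd7, at least 38.4-fold in O2 pnd7 and at least 31.9-fold in O2 pnd60, and the log2 ratio was 6.49 (4.01 to 11.80) in Air pnd60 and 2.32 (1.91 to 2.77) in O2/SC pnd7.

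Clec7a, which encodes dectin-1, a receptor for fungal β-glucan, stayed within a narrow range in alveolar-type macrophages. Its level there was 1203 CPM (1139 to 1269) in Air pnd7, 1262 (1189 to 1338) in O2 pnd7, 1346 (1319 to 1375) in O2/SC pnd7, 1173 (1118 to 1230) in Air pnd60 and 1313 (1257 to 1371) in O2 pnd60. In C1q-type macrophages it was 91.7 CPM (58.1 to 138), 75.2 (44.6 to 119), 260 (224 to 299), 269 (207 to 345) and 184 (133 to 249) in the same order. No interval of one class reached the other class, and the log2 ratio ran from 2.12 (1.76 to 2.51) in Air pnd60 to 4.07 (3.40 to 4.83) in O2 pnd7. When each library was clustered on its own, the ratio in O2/SC pnd7 was 0.81.

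Marco encodes a collagen-containing class A scavenger receptor that binds bacteria and particles. Its levels in alveolar-type macrophages lay in a higher and a lower set of libraries: 369 CPM (330 to 411) in O2 pnd7 and 339 (309 to 370) in Air pnd60, against 204 (179 to 233) in Air pnd7, 215 (204 to 227) in O2/SC pnd7 and 228 (205 to 253) in O2 pnd60. The intervals, which cover counting error only, overlap within each set and not between the sets. The intervals of the share of cells with a Marco count overlap between the sets too. The cell with the most counts held 17.5% of the Marco counts in Air pnd7 and 16.9% in O2 pnd7. It held 3.7% in O2/SC pnd7, 4.9% in Air pnd60 and 10.9% in O2 pnd60. In C1q-type macrophages Marco had 19 counts in Air pnd7, 0 in O2 pnd7, 150 in O2/SC pnd7, 3 in Air pnd60 and 1 in O2 pnd60. These counts lay in few cells: 127 of the 150 in O2/SC pnd7 were from 1 of 4 cells with the transcript, and 18 of the 19 in Air pnd7 from 1 of 2 cells. The log2 ratio of alveolar-type to C1q-type was 0.12 (-0.13 to 0.37) in O2/SC pnd7 and 1.43 (0.76 to 2.19) in Air pnd7, and without the cell with the most counts in each group it was 2.77 and 5.40.

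**Figure D1:**
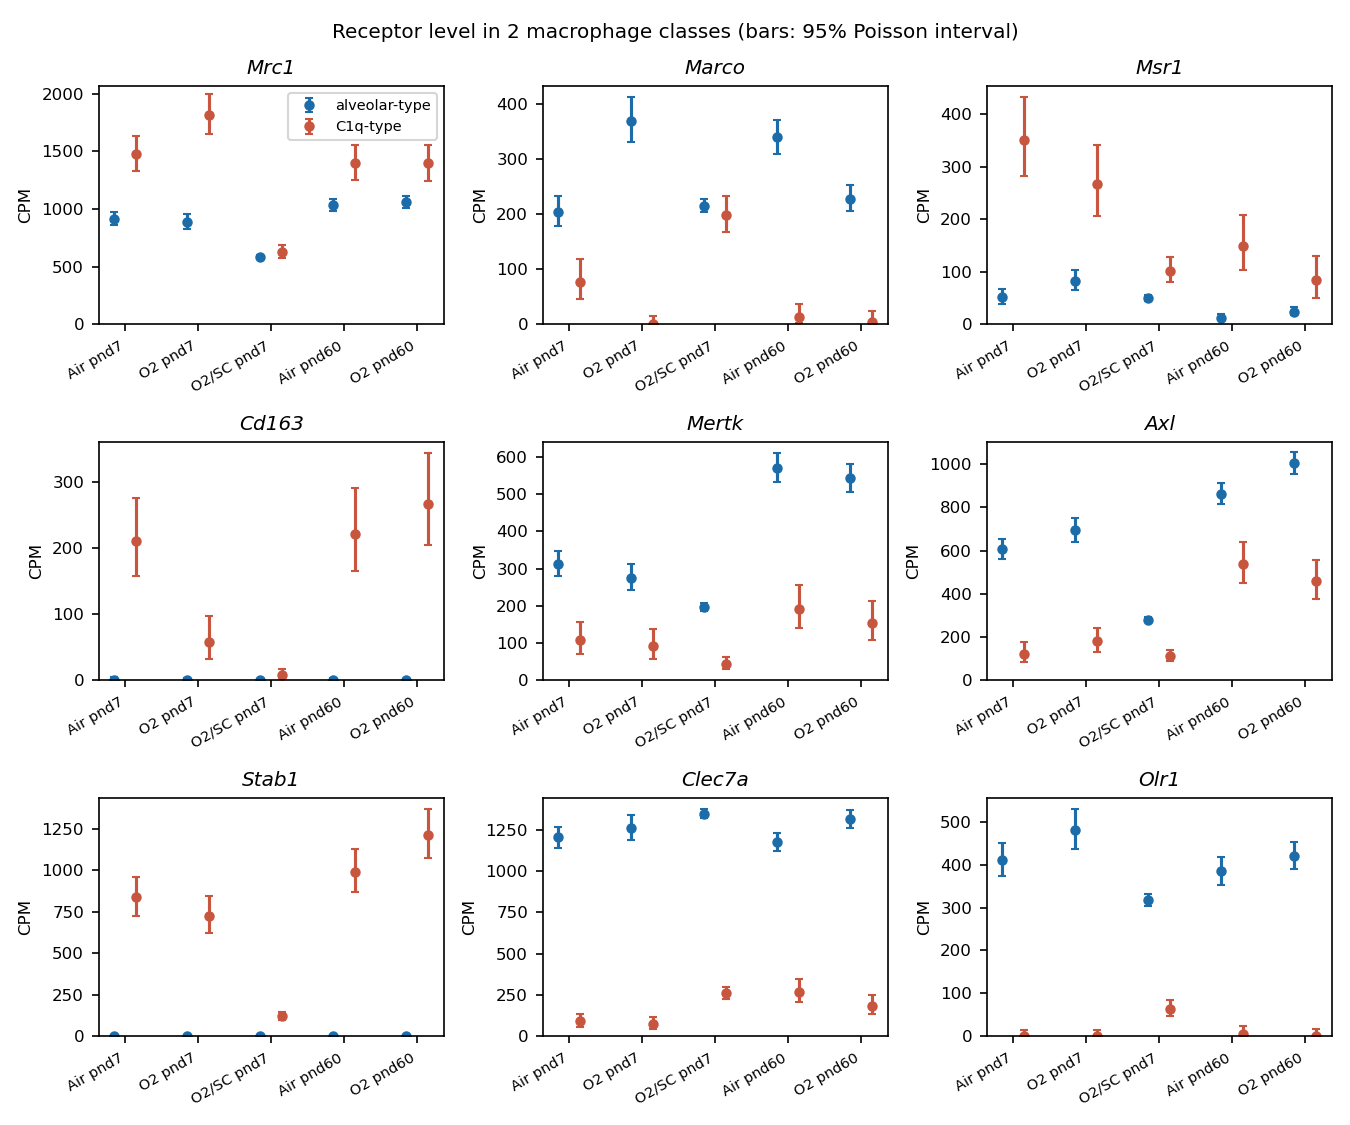
Level of 9 receptor genes (CPM, y axis of each panel) in the 5 libraries (x axis) for alveolar-type (blue) and C1q-type (red) macrophages, with 95% Poisson intervals as bars and 1 library per point. Clec7a, Olr1, Mertk and Axl lie higher in blue and Msr1, Cd163 and Stab1 higher in red, and the red point of Marco reaches the blue one in O2/SC pnd7, at 199 and 215 CPM.

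Mertk and Axl encode receptor tyrosine kinases of the TAM family, which bind phosphatidylserine through bridging proteins, Mertk through Gas6 or protein S and Axl through Gas6. Mertk in alveolar-type macrophages was 313 CPM (281 to 347) in Air pnd7, 275 (242 to 312) in O2 pnd7, 198 (187 to 209) in O2/SC pnd7, 571 (533 to 611) in Air pnd60 and 542 (507 to 580) in O2 pnd60. In C1q-type macrophages it was 108, 91.9, 43.7, 192 and 154 CPM in the same order, from 22 to 45 counts each. In both classes the sorted library was the lowest and the pnd60 libraries the highest, although the C1q-type intervals of neighbours in that order overlap. The log2 ratio of alveolar-type to C1q-type was between 1.54 and 2.18 in the 5 libraries.

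Axl in alveolar-type macrophages was 608 CPM (563 to 655) in Air pnd7, 695 (641 to 752) in O2 pnd7, 280 (267 to 293) in O2/SC pnd7, 863 (816 to 913) in Air pnd60 and 1003 (954 to 1053) in O2 pnd60. The order was the sorted library, then pnd7, then pnd60, and only the intervals of Air pnd7 and O2 pnd7 overlap. C1q-type macrophages had 124, 180, 113, 539 and 461 CPM. In the unsorted libraries the gap between the classes was larger at pnd7 than at pnd60. The log2 ratios were 2.30 in Air pnd7 and 1.95 in O2 pnd7, against 0.68 in Air pnd60 and 1.12 in O2 pnd60. The C1q-type level of O2 pnd7, from 43 counts, has an interval of 130 to 242 CPM. That interval holds the 153 CPM of airway epithelium-like cells of the same library, and the part of background in the gap was not tested. The sorted library of pnd7, with 280 CPM in alveolar-type and 113 CPM in C1q-type cells, is not part of this comparison of ages. Whether the gap differed between ages beyond the spread between mice could not be tested.

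Stab1 encodes stabilin-1, which takes up modified lipoproteins and matrix fragments. C1q-type macrophages held it at 837 CPM (728 to 958) in Air pnd7, 727 (623 to 843) in O2 pnd7, 122 (98.2 to 149) in O2/SC pnd7, 992 (868 to 1128) in Air pnd60 and 1216 (1077 to 1368) in O2 pnd60. The alveolar-type cells held 3, 1, 20, 0 and 2 counts, so that Stab1 was at least 479-fold lower in the alveolar-type cells of Air pnd60, and its log2 ratio was -8.28 (-10.57 to -6.72) in Air pnd7 and -5.33 (-6.11 to -4.62) in O2/SC pnd7.

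Cd163, the receptor for hemoglobin bound to haptoglobin, was counted in few cells. In C1q-type macrophages it had 53 counts in 10 of 22 cells in Air pnd7 (211 CPM, 158 to 276), 14 counts in 3 of 19 cells in O2 pnd7 (58.5 CPM, 32.0 to 98.1), 6 counts in 2 of 49 cells in O2/SC pnd7 (7.9 CPM, 2.9 to 17.3), 52 counts in 18 of 65 cells in Air pnd60 (222 CPM, 166 to 292) and 61 counts in 21 of 56 cells in O2 pnd60 (268 CPM, 205 to 344). The 3 libraries Air pnd7, Air pnd60 and O2 pnd60 overlapped and lay above O2 pnd7, which lay above O2/SC pnd7. Alveolar-type macrophages held 1, 0, 4, 1 and 0 counts, and Cd163 was at least 140-fold lower there in O2 pnd60.

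Msr1, the class A scavenger receptor for modified lipoproteins, was higher in the C1q-type class in every library. Its level there was 351 CPM (281 to 432) in Air pnd7, 267 (206 to 341) in O2 pnd7, 102 (80.5 to 127) in O2/SC pnd7, 150 (104 to 208) in Air pnd60 and 83.4 (50.2 to 130) in O2 pnd60. In alveolar-type macrophages it was 52.0 (39.5 to 67.2), 82.6 (64.8 to 104), 49.9 (44.6 to 55.6), 12.4 (7.4 to 19.6) and 24.2 (17.1 to 33.2) in the same order. The pnd60 libraries were the lowest of the alveolar-type cells, and the log2 ratio of the classes ran from -3.59 in Air pnd60 to -1.03 in O2/SC pnd7.

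Mrc1, which encodes the mannose receptor CD206, was 1479 CPM (1332 to 1638) in the C1q-type macrophages of Air pnd7, 1817 (1650 to 1996) in O2 pnd7, 632 (576 to 691) in O2/SC pnd7, 1398 (1250 to 1558) in Air pnd60 and 1396 (1246 to 1558) in O2 pnd60. Alveolar-type macrophages had 917 (861 to 975), 891 (830 to 955), 581 (563 to 600), 1036 (984 to 1090) and 1060 (1010 to 1112). The C1q-type class was higher in the 4 unsorted libraries, with log2 ratios of alveolar-type to C1q-type from -1.03 to -0.40, and in O2/SC pnd7 the ratio was -0.12 (-0.26 to 0.02).

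Among members with at least 30 counts in both classes together, those at least 2-fold higher in the alveolar-type class were 5 of 9 in Air pnd7, against 17.9% of all genes compared, 5 of 8 in O2 pnd7 (20.5%), 4 of 8 in O2/SC pnd7 (15.3%), 4 of 9 in Air pnd60 (19.4%) and 5 of 9 in O2 pnd60 (18.8%). Those at least 2-fold lower were 3 of 9 (9.62%), 3 of 8 (8.57%), 2 of 8 (10.8%), 3 of 9 (10.1%) and 3 of 9 (11.1%) in the same order. With bounded genes at their bound, the median log2 ratio of the members was 1.43, 1.77, 0.72, 0.68 and 1.12, and that of all genes 0.13, 0.22, 0.12, 0.18 and 0.13. The calls nearest to 2-fold, Mrc1 in O2 pnd7 and Msr1 in O2/SC pnd7, both at -1.03, were at -0.34 and -0.78 with clusters made within each library. With cells thinned to 1000 counts each, Mertk was at 0.61 in O2 pnd7 and Axl at 0.56 in O2/SC pnd7, and Msr1, from few counts, at -0.97 (-3.05 to 1.29) in O2 pnd7 and -0.77 (-3.57 to 2.70) in O2 pnd60.

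At pnd7, the comparison of O2 pnd7 with Air pnd7 asks what differed after the days of recovery in air that followed hyperoxia. In alveolar-type macrophages none of 7 members was 2-fold higher or lower, against 0.876% of all genes higher and 1.39% lower. Marco had the highest log2 ratio of the members, 0.85 (0.60 to 1.10), followed by Msr1 at 0.67 (0.15 to 1.19). Olr1 was 0.23 (0.03 to 0.42), Axl 0.19 (0.03 to 0.35), Clec7a 0.07 (-0.05 to 0.19), Mrc1 -0.04 (-0.18 to 0.09) and Mertk -0.19 (-0.43 to 0.05). The median was 0.19, against 0.00 for all genes. With every cell thinned to 1000 counts, Axl was at -0.22 (-0.89 to 0.43), Olr1 at -0.10 (-1.01 to 0.79) and the median at -0.10. Both thinned intervals hold 0 and the main value.

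In C1q-type macrophages at pnd7, from 22 and 19 cells, 1 of 7 members, Cd163, was at least 2-fold lower after hyperoxia (5.12% of all genes) and none was 2-fold higher (2.49%). Its log2 ratio was -1.85 (-2.82 to -0.98), and 12 of the 14 counts in O2 pnd7 were from 1 cell, without which and without its counterpart in air the ratio was -4.18. Mrc1 was at 0.30 (0.09 to 0.50), and at -0.19 (-0.91 to 0.52) with thinned cells and -0.31 with clusters made within each library, where Msr1 was at -1.05. The intervals of Stab1, Msr1, Mertk, Axl and Clec7a all held 0. The type II-like markers, at 263 CPM in these cells of O2 pnd7 and 8795 CPM in those of Air pnd7, differed between the groups too. The median was -0.23, against -0.04 for all genes.

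At pnd60, in adult mice that had recovered in air, none of 7 members reached 2-fold in alveolar-type macrophages of O2 pnd60 against Air pnd60 (0.752% of all genes higher, 1.55% lower). Marco was lower, at a log2 ratio of -0.57 (-0.77 to -0.37), the reverse of its direction at pnd7. Axl at 0.22 (0.11 to 0.32), Clec7a at 0.16 (0.07 to 0.26) and Msr1 at 0.96 (0.12 to 1.86, from 38 and 18 counts) were higher. Mrc1 at 0.03, Olr1 at 0.13 and Mertk at -0.07 had intervals that held 0. In C1q-type macrophages none of 7 reached 2-fold (1.29% higher, 2.14% lower), and Stab1 at 0.29 (0.04 to 0.55) was the only member whose interval did not hold 0. Msr1 was at 1.08 in alveolar-type cells without the doublets called by Scrublet. The medians were 0.13 in alveolar-type and -0.23 in C1q-type macrophages, against -0.01 and 0.02 for all genes.

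**Figure D2:**
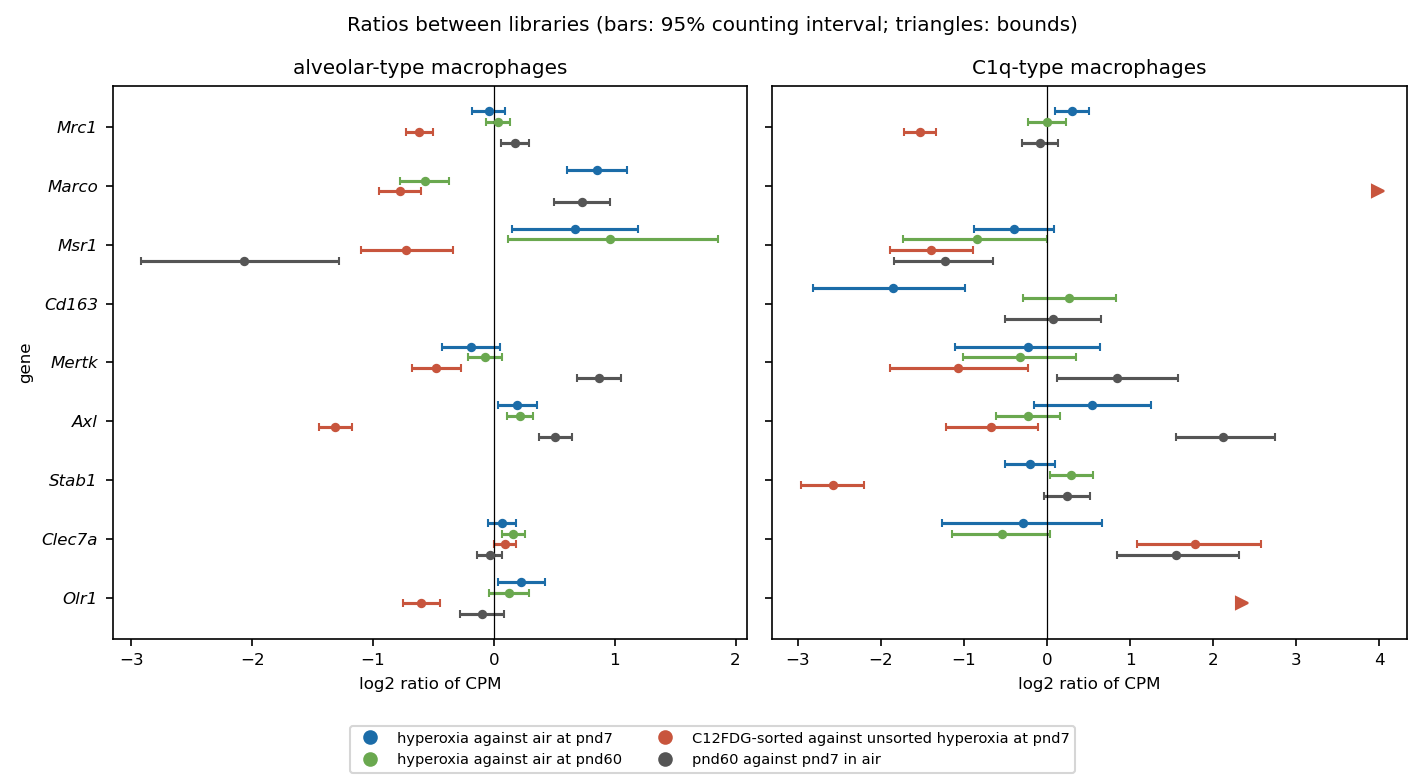
Log2 ratio of CPM (x axis) of each receptor gene (y axis) between libraries, in alveolar-type (left) and C1q-type (right) macrophages, with 95% counting intervals as bars, colours for the 4 comparisons and triangles for bounds. Marco in alveolar-type cells lies at 0.85 for hyperoxia against air at pnd7 and at -0.57 at pnd60, and Axl lies at 0.51 and 2.12 for pnd60 against pnd7 in the 2 classes.

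Marco was counted in only some of the alveolar-type cells. A Marco count was present in 43.8% of alveolar-type cells in Air pnd7, 53.6% in O2 pnd7, 48.2% in O2/SC pnd7, 45.6% in Air pnd60 and 36.6% in O2 pnd60, at median depths of 7573 to 15698 counts. Clec7a was present in 94.6% to 98.9% of the same cells. With each cell thinned to 1000 counts, the share with Marco was 16.2%, 23.2%, 12.8%, 23.6% and 13.1%. B cell-like cells, which should lack Marco, held it in 0% to 1.63% of cells at median depths of 1597 to 4210 counts. Other classes held more: in Air pnd7 Marco was 45.4 CPM in erythroid cell-like barcodes and 35.5 CPM in type I cell-like cells. The part of such background in the shares above was not tested. A further 42 cells, all of O2 pnd7, formed a cluster that passed no naming rule, and 36 of them held Marco, with 152 counts and 830 CPM (703 to 973). Its leading genes included Apoc1, Npy2r, Lyz1, Cox4i2, Ndufa4l2 and Gucy1b1. The class nearest to a name was the mesenchymal one, with 3 of 15 markers raised. This cluster was picked out after its values were seen.

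**Figure D3:**
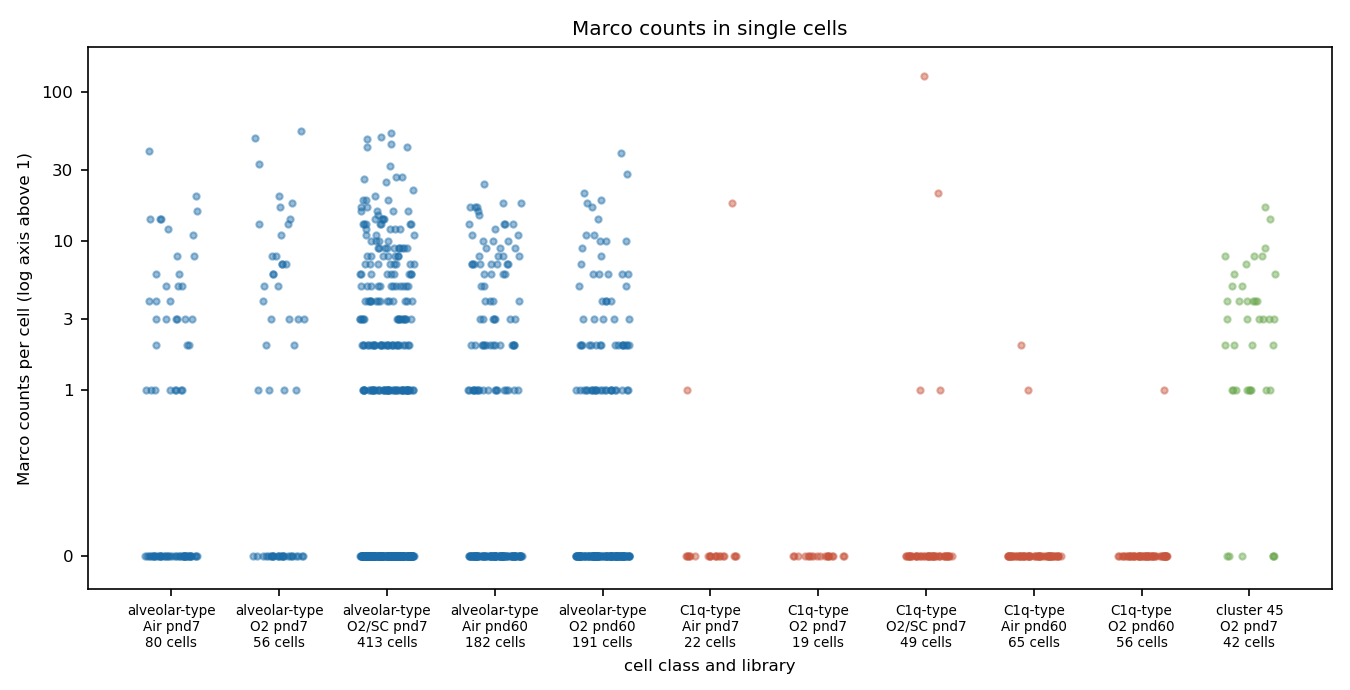
Marco counts per cell (y axis, logarithmic above 1, with jitter along x only) in alveolar-type (blue) and C1q-type (red) macrophages of each library and in the unnamed cluster of 42 cells of O2 pnd7 (green), 1 point per cell. Most C1q-type cells sit at 0, and 1 cell of O2/SC pnd7 holds 127 counts.

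The sorted cells were set against the unsorted cells of the same exposure and age. According to the paper, the unsorted data came from an earlier published dataset of its authors. Differences due to sorting and differences between the experiments therefore cannot be told apart in these ratios. Over all cells, 7 of 8 members were at least 2-fold higher in O2/SC pnd7 than in O2 pnd7 (8.12% of all genes) and 1, Stab1, was 2-fold lower (42.0%). Alveolar-type macrophages made up 83.8% of the sorted cells and 4.49% of the unsorted cells, and in sums over all cells more cells of a type and more RNA per cell cannot be told apart. The log2 ratio over all cells was 3.39 (3.31 to 3.47) for Clec7a and 2.97 (2.83 to 3.12) for Olr1. Over all cells of the unsorted libraries, 1 of 9 members, Cd163, was past 2-fold in hyperoxia against air at pnd7, downward at -1.71 (0.679% of all genes higher, 1.79% lower), and none at pnd60 (0.811% and 0.547%).

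Within alveolar-type macrophages, 1 of 7 members, Axl, was 2-fold lower in sorted cells (19.1% of all genes) and none was 2-fold higher (5.21%). The median log2 ratio was -0.62, against -0.35 for all genes. Axl was 2.48-fold lower, with a log2 ratio of -1.31 (-1.44 to -1.18). Marco at -0.78 (-0.95 to -0.60), Msr1 at -0.73 (-1.10 to -0.34), Mrc1 at -0.62 (-0.73 to -0.50), Olr1 at -0.60 (-0.75 to -0.45) and Mertk at -0.47 (-0.67 to -0.27) were lower, while Clec7a was at 0.09 (0.00 to 0.18). Against Air pnd7, Axl at -1.12 (-1.25 to -0.99) was again the 1 of 7 members past 2-fold downward (18.9% of all genes), none was past it upward (4.93%), and Marco was at 0.08 (-0.13 to 0.28). Relative to the median of all genes Axl was at -0.96, with Seurat clusters at -0.93, and with thinned cells Mertk was at 0.29 (-0.71 to 1.47) and Marco at -1.28.

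In C1q-type macrophages 4 of 8 members were at least 2-fold lower in sorted cells (14.0% of all genes) and 3 were at least 2-fold higher (15.7%). Stab1 was 5.97-fold lower, at -2.58 (-2.96 to -2.20), Mrc1 was at -1.52 (-1.72 to -1.33), Msr1 at -1.39 (-1.89 to -0.89) and Mertk at -1.07 (-1.89 to -0.22). Clec7a was 3.45-fold higher, at 1.79 (1.09 to 2.57), and at 0.63 with thinned cells. Its level in O2 pnd7, 75.2 CPM from 18 counts, lies below the 109 CPM of airway epithelium-like cells of that library. Marco was at least 15.8-fold higher and Olr1 at least 5.07-fold higher against 0 counts in O2 pnd7, and without the cell with the most counts these log2 values were 1.28 and 0.93. The alveolar markers summed to 180 CPM in these sorted cells and 50.1 CPM in the unsorted ones, and the C1q markers to 10468 and 15921 CPM, and their part in these ratios was not tested. The type II-like markers stood at 8408 CPM in the sorted and 263 CPM in the unsorted cells. Msr1 was at -0.94 and Mertk at -0.44 with clusters made within each library, and Axl, at -0.67 (-1.22 to -0.11), was at 0.015. The median of the members was -0.87, against -0.07 for all genes. Against Air pnd7, 3 of 9 members were 2-fold higher (13.8%) and 5 were 2-fold lower (17.3%), with Cd163 at -4.73 (-6.24 to -3.52).

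Age was compared in the air libraries, pnd60 against pnd7. Over all cells 1 of 9 members, Mertk, was past 2-fold upward (16.7% of all genes), at 1.20 (1.07 to 1.34), and none downward (11.0%). Alveolar-type macrophages held 51.9% of the Mertk counts of Air pnd7 and 60.4% of those of Air pnd60. Blood endothelium-like cells made up 6.58% of the cells of Air pnd7 and 17.9% of those of Air pnd60. More cells of a type and more RNA per cell cannot be told apart in this sum. In alveolar-type macrophages none of 7 members was 2-fold higher (7.23% of all genes) and 1, Msr1, was 2-fold lower (3.44%), by 4.19-fold with a log2 ratio of -2.07 (-2.92 to -1.28). Mertk was 1.83-fold higher at 0.87 (0.69 to 1.05; 1.20 with thinned cells), Marco was at 0.73 (0.50 to 0.96), Axl at 0.51 (0.37 to 0.64) and Mrc1 at 0.18 (0.06 to 0.29). Clec7a at -0.04 and Olr1 at -0.10 had intervals that held 0. After hyperoxia Mertk was at 0.98 (0.77 to 1.19), Axl at 0.53 (0.39 to 0.67), Msr1 at -1.77 (-2.38 to -1.19) and Marco, in the opposite direction, at -0.70 (-0.92 to -0.48), with 0 of 7 members 2-fold higher (7.20%) and 1 of 7 lower (4.58%).

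In C1q-type macrophages Axl was 4.36-fold higher in Air pnd60 than in Air pnd7, at 2.12 (1.55 to 2.74), and Clec7a 2.94-fold higher, at 1.55 (0.84 to 2.31). These were the 2 of 7 members past 2-fold upward (15.4% of all genes), and Msr1 at -1.23 (-1.84 to -0.65) was the 1 past it downward (14.0%). Mertk was at 0.84 (0.12 to 1.58), and Stab1, Cd163 and Mrc1 had intervals that held 0. After hyperoxia, Cd163 at 2.19 (1.34 to 3.15), Axl at 1.36 (0.83 to 1.91) and Clec7a at 1.29 (0.47 to 2.18) were past 2-fold upward (3 of 7, 16.6%) and Msr1 at -1.68 (-2.50 to -0.92) downward (1 of 7, 11.7%). The Axl level of O2 pnd7 there, 180 CPM (130 to 242), has an interval that holds the 153 CPM of airway epithelium-like cells of O2 pnd7. With thinned cells Clec7a was at 0.61 and Mertk at 1.24 in air, and Msr1, from few counts, at -0.56 (-1.97 to 0.99). The Clec7a level of Air pnd7 in the air ratio was 91.7 CPM. It lies within the levels of erythroid cell-like barcodes (80.4 CPM) and type I cell-like cells (109 CPM) of that library. The Clec7a level of O2 pnd7 in the ratio after hyperoxia, 75.2 CPM, lies below the 109 CPM of airway epithelium-like cells of O2 pnd7. The type II-like markers were at 8795 CPM in these cells of Air pnd7 and 333 CPM in those of Air pnd60. The median of the members in air was 0.18 in alveolar-type and 0.24 in C1q-type macrophages, against 0.12 and 0.03 for all genes.

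Outside the macrophages, several receptor genes had a level in 1 or a few other classes. Clec7a was 427 to 576 CPM in classical monocyte-like cells, 189 to 402 in nonclassical monocyte-like cells, and 804 and 1032 in the neutrophil-like cells of Air pnd60 and O2 pnd60. Msr1 was 118 to 154 CPM in classical monocyte-like and 31.3 to 81.2 in nonclassical monocyte-like cells. Stab1 was 132 to 200 CPM in blood endothelium-like cells, and 980 CPM in the 20 lymphatic endothelium-like cells of O2 pnd60, which also held Mrc1 at 710 CPM. Mertk in blood endothelium-like cells was 33.0 CPM in Air pnd7 and 31.8 in O2 pnd7, against 160 in Air pnd60 and 153 in O2 pnd60, and in mesenchymal cell-like cells 19.8 and 22.0 against 96.4 and 95.3. The erythroid cell-like barcodes held Mertk at 30.3 CPM in Air pnd7 and 8.9 CPM in O2 pnd7, and airway epithelium-like cells of O2 pnd7 held 29.2 CPM. The pnd7 values are therefore not read as levels above background and no fold between the ages is given. Axl was 128 to 135 CPM in the dendritic cell-like cells of the pnd60 libraries. In airway epithelium-like cells Axl ranged from 4.8 CPM in O2 pnd60 to 153 CPM in O2 pnd7. In mesenchymal cell-like cells it was 56.9 to 90.5 CPM, where it is not read above background. Erythroid cell-like barcodes, found at pnd7 only, held up to 60.5 and type I cell-like cells up to 84.7 CPM. In B cell-like cells every member was between 0 and 6.4 CPM. In Air pnd7 the erythroid cell-like barcodes held Marco at 22.2% of its alveolar-type level and Clec7a at up to 9.1% of its level across the non-myeloid classes, so low values there are not read as expression.

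**Figure D4:**
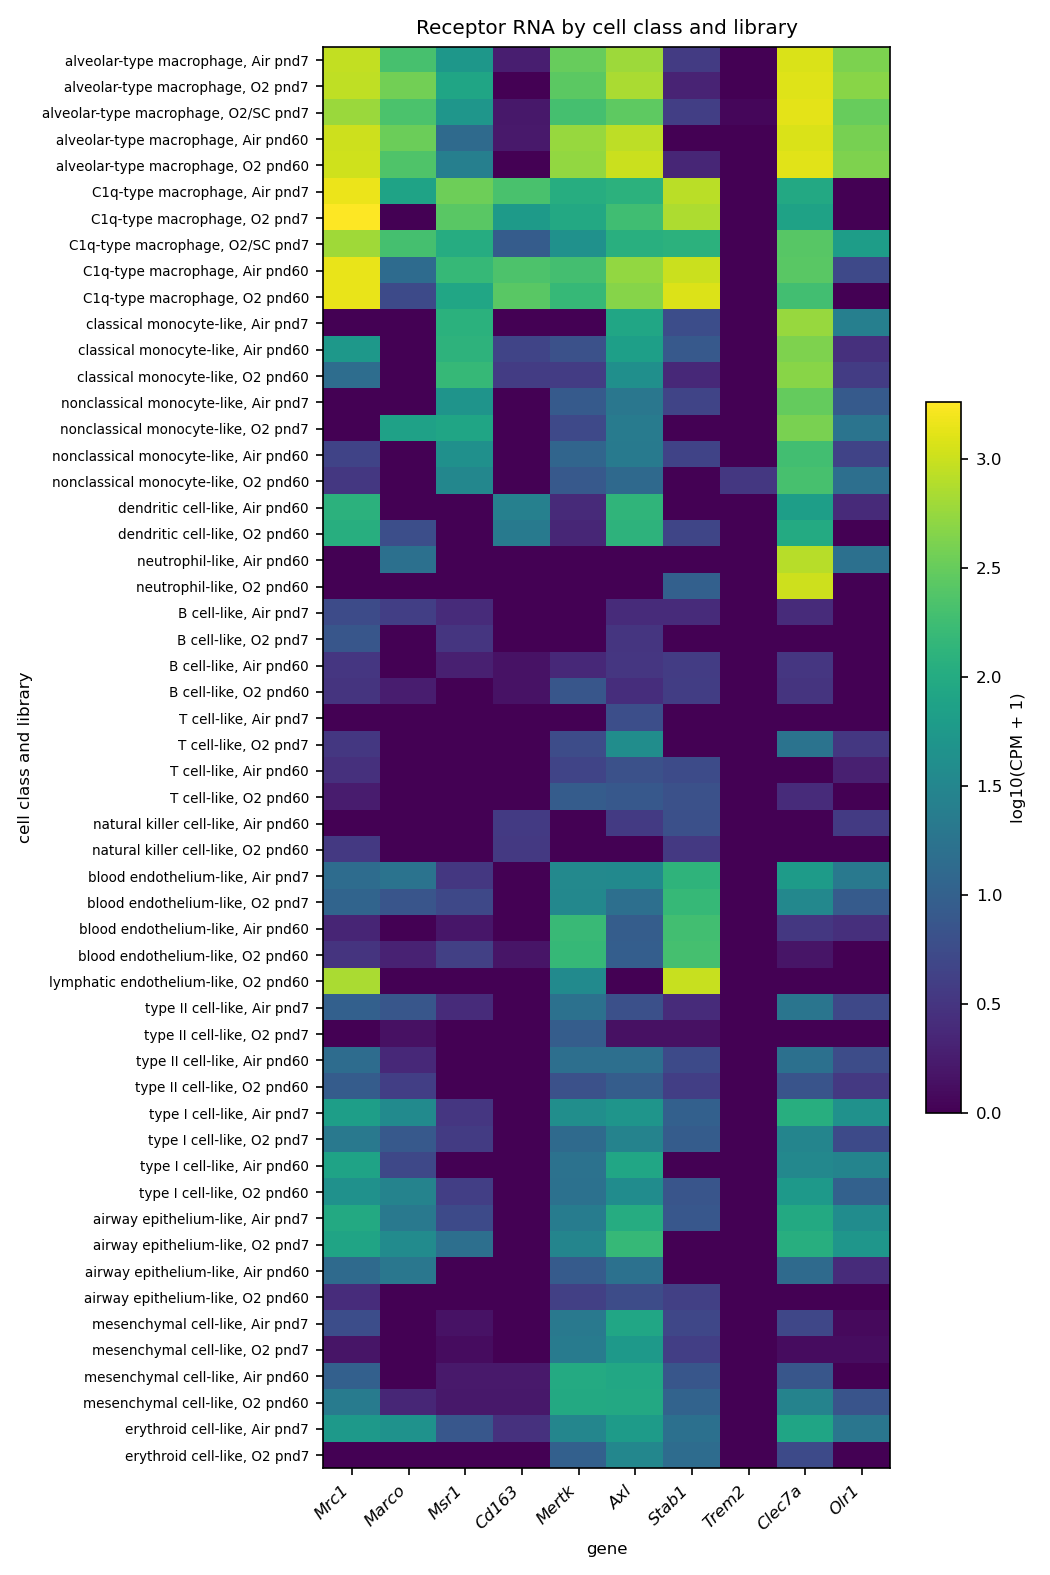
Level of the 10 receptor genes (x axis) in each cell class of each library with at least 20 cells, and in the 19 C1q-type cells of O2 pnd7 (y axis), as log10(CPM + 1) by colour. Mrc1 is bright in both macrophage classes, Clec7a in alveolar-type macrophages and neutrophil-like cells, and Stab1 in C1q-type macrophages and lymphatic endothelium-like cells. Trem2, with 2 counts in all, is not read as a level.

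The RNA of the bridging proteins lay partly in other cells than that of Mertk and Axl. Gas6 was 0 to 3.6 CPM in alveolar-type macrophages but 339, 330, 94.0, 325 and 329 CPM in the C1q-type macrophages of Air pnd7, O2 pnd7, O2/SC pnd7, Air pnd60 and O2 pnd60, and 299 to 391 CPM in type II cell-like cells. Pros1, the gene of protein S, was 138, 130, 64.1, 219 and 244 CPM in alveolar-type and 34.4 to 128 CPM in C1q-type macrophages. Mfge8, which links phosphatidylserine to integrins, was highest in mesenchymal cell-like cells at 283 and 383 CPM in the pnd7 libraries and 539 and 576 at pnd60. In the sorted library Gas6 in C1q-type macrophages was lower than in O2 pnd7, with a log2 ratio of -1.81 (-2.29 to -1.33).

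**Figure D5:**
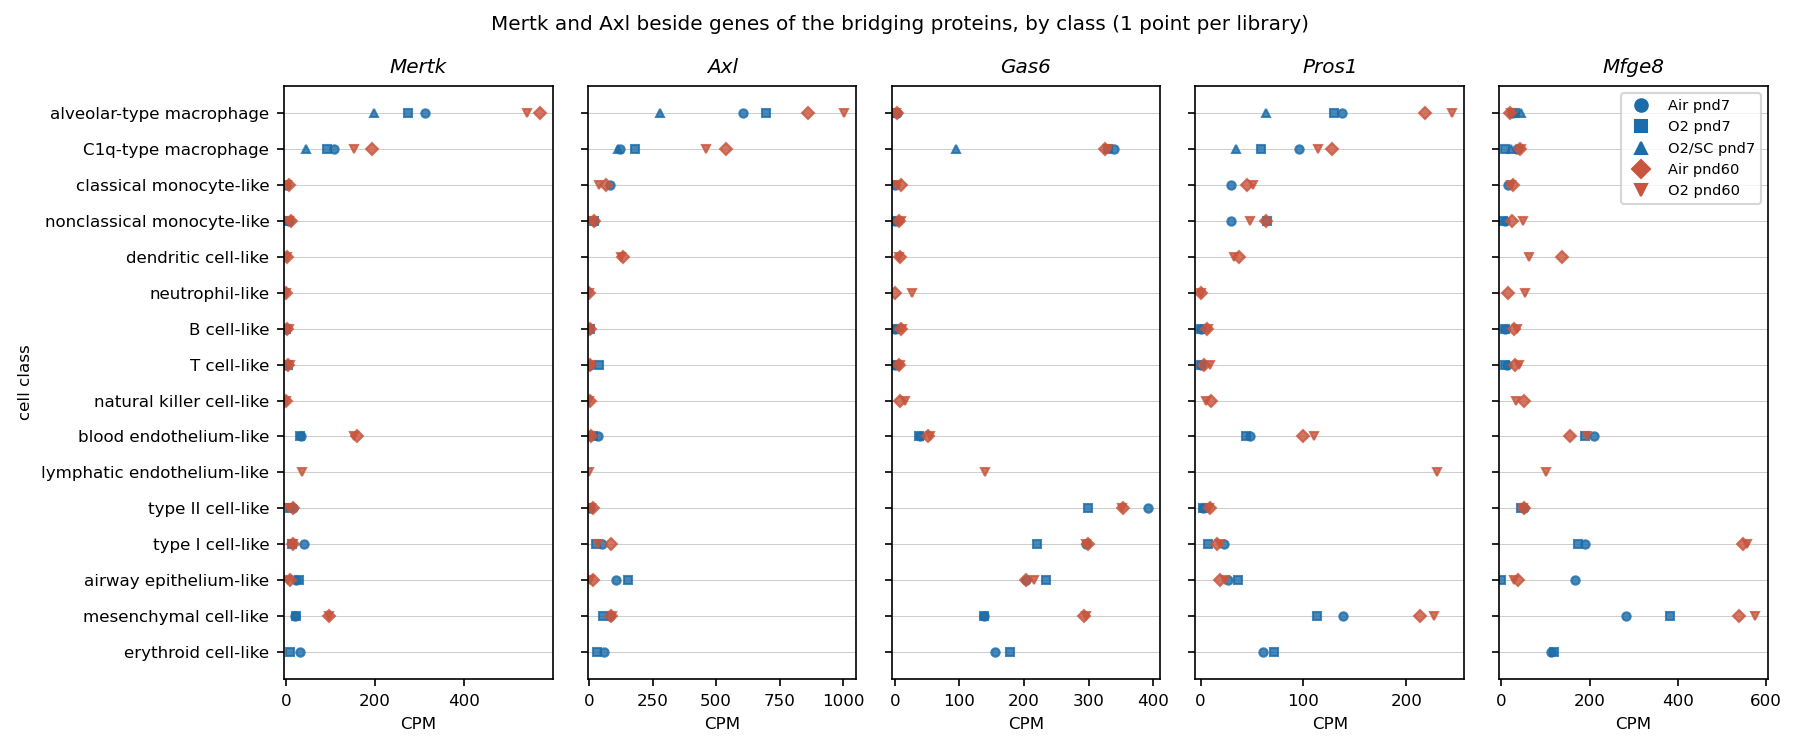
Level (CPM, x axis of each panel) of Mertk and Axl and of the bridging protein genes Gas6, Pros1 and Mfge8 in each cell class (y axis), 1 point per library with symbols and colours for the 5 libraries. Mertk and Axl are highest in alveolar-type macrophages, where Gas6 is between 0 and 3.6 CPM, and Gas6 lies at 94.0 to 339 CPM in C1q-type macrophages.

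A list of 47 other scavenger, phosphatidylserine, lectin and engulfment genes was read beside the members. Between the macrophage classes, 10 of 32 tested were at least 2-fold higher in the alveolar-type cells of Air pnd7 (17.9% of all genes), 8 of 28 in O2 pnd7 (20.5%), 4 of 34 in O2/SC pnd7 (15.3%), 9 of 31 in Air pnd60 (19.4%) and 6 of 32 in O2 pnd60 (18.8%). Those at least 2-fold lower were 6 (9.62%), 4 (8.57%), 6 (10.8%), 7 (10.1%) and 8 (11.1%) in the same order, and the medians were 0.42, 0.46, 0.48, 0.20 and -0.04. Ly75, a relative of Mrc1, was 184 to 325 CPM in alveolar-type and at most 8.8 CPM in C1q-type macrophages, and Cd300lf, which binds phosphatidylserine, was 189 to 346 CPM against 4.4 to 41.1 CPM. In hyperoxia against air at pnd7, 1 of 29 was at least 2-fold higher in alveolar-type cells (0.876% of all genes) and none lower (1.39%). This was Clec12a, a lectin receptor for uric acid crystals, at 47.5 against 21.5 CPM and a log2 ratio of 1.14 (0.39 to 1.93, from 42 and 24 counts). At pnd60 none of 32 reached 2-fold (0.752% higher, 1.55% lower). Timd4, a direct phosphatidylserine receptor, was 383 CPM in the C1q-type cells of Air pnd7 and 29.2 CPM in those of O2 pnd7, a log2 ratio of -3.71 (-5.06 to -2.61), with the type II-like markers of these cells at 8795 and 263 CPM. It was 63.6 CPM in O2/SC pnd7, a log2 ratio of 1.12 (-0.03 to 2.51) to O2 pnd7, and 8.55 CPM, from 2 counts, in Air pnd60. In sorted against unsorted alveolar-type cells 4 of 32 were at least 2-fold higher (5.21% of all genes) and 7 lower (19.1%), with a median of -0.44 against -0.35 for all genes. The lowest log2 ratios were those of Clec12a at -1.79 (-2.33 to -1.23), Abca7, a lipid transporter, at -1.49 (-2.05 to -0.92) and Elmo2, which acts in engulfment, at -1.46 (-1.83 to -1.08). The lectins Clec4e and Clec4d, which sense microbes and dead cells, were 142 and 117 CPM in sorted alveolar-type cells against 9.05 and 7.92 CPM in unsorted ones, and 275 and 285 CPM in sorted C1q-type cells against 0 and 54.3 CPM.

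Clec7a and Olr1 are neighbours on chromosome 6, at 129461591 to 129472785 and 129479150 to 129507350, with 6364 bases and 0 gene starts between them. The long non-coding RNA gene Gm45969, at 129459788 to 129501701, spans Clec7a and the gap and reaches into Olr1. It stood at 7.6 CPM or less in both macrophage classes. Clec7a and Olr1 were carried mainly by alveolar-type macrophages, which held 74% to 97% of the Olr1 counts of a library and 65% to 97% of those of Clec7a. The nearby lectin genes Clec12b and Clec9a stood at 3.4 CPM or less in both macrophage classes, Clec1b at up to 26.1 CPM and Clec1a at up to 17.9 CPM. Over 53 combinations of class and library, and among 14375 genes, the genes with the most similar profile were Ccl6, Lilrb4a and Tlr2 for Clec7a, with Pearson correlations of log2(CPM + 10) of 0.971, 0.939 and 0.929, and Atp6v0d2, Klhdc4 and Acaa1b for Olr1, at 0.948, 0.924 and 0.919. For Marco they were Tfec, AU022793 and the member Olr1, at 0.891, 0.887 and 0.880. For Msr1 the nearest was Fcgr1 at 0.956, for Cd163 Ccl12 at 0.943, for Mrc1 Prune2 at 0.892, for Stab1 Lyve1 at 0.851 and for Axl Pla2g15 at 0.850. Atp6v0d2 is also an alveolar marker used to name the classes. These combinations share libraries and depth, and the correlations are descriptions.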

How the data were processed

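Single-cell RNA of mouse lung was measured in 5 libraries made with the 10x Genomics Chromium Single Cell 3′ system, 1 for each condition. Deposited by the authors were whole-number counts of molecules for every gene and barcode, without normalization. The submitters' processing notes name Cell Ranger, the build mm10 and Seurat 3.2.1, and the matrix headers give software version 3.1.0. The study's filter of 700 to 8000 genes per cell and less than 5% of counts from mitochondrial genes was applied. No doublets were removed, and Scrublet called 1, 3, 2, 127 and 155 cells in Air pnd7, O2 pnd7, O2/SC pnd7, Air pnd60 and O2 pnd60.

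The 5 libraries were clustered together without integration and without the members. The 3000 most variable genes were reduced to 50 components and clustered by Leiden at a resolution of 2. This gave 57 clusters, of which 10 stayed unnamed, in 18 classes. Thresholds for naming were set after seeing the data. Counts were summed per class and library and divided by their total as CPM, with exact Poisson intervals, and shares of cells have Clopper-Pearson intervals. Log2 ratios have intervals from the binomial distribution of one group's counts given the total. Ratios need 30 counts in both groups together in the main counts, and alternatives were computed for the same genes, however few counts they left. Where a group had none the ratio is a bound made with 3 counts, and a call is 2-fold. The members and lists were chosen with earlier results of these data known. The text names the members, genes among the 3 highest and 3 lowest past 2-fold of the other lists in each comparison, the bridging protein genes, leading genes of clusters and genes among the 3 nearest to each member in profile, of which the result for Mertk is not reported here. Alternatives changed the filter, doublets, depth, scaling, resolution, clusters within libraries, marker-based classes and Seurat integration. 4 more were added after seeing the data.

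On simulated data for the sorted against unsorted alveolar-type comparison over 9139 genes, with 200 changed genes in 20 simulations, the intervals covered 96.2% of unchanged and 95.7% of changed genes. No other comparison was simulated, including those of C1q-type cells, where 1 cell held most counts of some genes. The intervals still cover counting error only. The tools were Python 3.11.15, scanpy 1.11.5, leidenalg 0.10.2, pandas 2.3.3, scipy 1.17.1, numpy 2.4.6, matplotlib 3.10.9, R 4.3.3, Seurat 5.3.0 and sctransform 0.4.2.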

Additional observations from a re-analysis of the deposited data

Results flagged for a closer look

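The direction of Marco between hyperoxia and air in alveolar-type macrophages differed with age, with a log2 ratio of 0.85 at pnd7 and -0.57 at pnd60. All 4 libraries enter 1 of the ratios each, and the difference between the ages was not tested.

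In C12FDG-sorted against unsorted hyperoxia cells at pnd7, Marco was at -0.78 in alveolar-type macrophages and at 3.99 or more, a bound, in C1q-type macrophages. Olr1 was at -0.60 in alveolar-type macrophages and at 2.34 or more in C1q-type macrophages. The opposite directions of each gene were not tested, and in the C1q-type cells 127 of 150 Marco counts and 30 of 48 Olr1 counts came from 1 cell each.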

How the results depend on the processing

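Of the median log2 ratios of the members, 146 values under the alternatives moved by less than the main interval, 9 moved further and 1 reversed, and of the single values 1097 moved by less than it, 191 moved further and 6 reversed. Thinning cells to 1000 counts accounted for much of this: 126 of its single values, shares of cells included, moved further, 4 reversed and 64 moved by less. A share of cells with a count can only fall with thinning, so the direction of those moves was fixed in advance. With cells thinned to 1000 counts, the median was 0.86 for alveolar-type against C1q-type cells in O2 pnd7, -0.10 for hyperoxia against air in alveolar-type cells at pnd7 (reversed) and -0.17 for sorted against unsorted alveolar-type cells. The medians of the interval limits were -0.83 to 3.65, -0.89 to 0.43 and -0.83 to 0.34, which all span 0. The median for sorted against unsorted alveolar-type cells was -0.26 after subtracting the median of all genes, -0.21 with Seurat integration and -0.79 without the cell cycle cluster. For pnd60 against pnd7 in air, alveolar-type cells gave 0.053 after subtracting the median of all genes, 0.30 with clusters within each library and 0.44 with Seurat integration. Without the cell with the most counts, alveolar-type against C1q-type cells in O2/SC pnd7 gave 2.04. Reversed single values with thinned cells were Axl -0.22 (-0.89 to 0.43) and Olr1 -0.10 (-1.01 to 0.79) in hyperoxia against air at pnd7 in alveolar-type cells. Mertk was 0.29 (-0.71 to 1.47) in sorted against unsorted alveolar-type cells. Mrc1 was -0.19 (-0.91 to 0.52) in hyperoxia against air at pnd7 in C1q-type cells. Each of these intervals holds 0 and the main value. With clusters within each library, that Mrc1 ratio was -0.31 and Axl in sorted against unsorted C1q-type cells 0.015. The cause was not tested. With 1 library per condition and 19 to 65 C1q-type cells in a library, differences between mice cannot be told apart from differences between conditions. No paired analysis was possible because the conditions were sequenced as a single library each.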
